A study of Rattus norvegicus with 6 samples.

Results

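The genes described here are 36 genes of the interferon response and of cytoplasmic RNA sensing, measured in heart muscle cells that had been transfected with either of 2 small interfering RNAs. They were listed by symbol, and each was looked up on the array through the RefSeq accession of its probes. Of the 36, 34 had a probe matched in this way, 33 had signal high enough to be tested, and they stand among 11580 named genes tested of 15168 on the array. No probe was matched to Rigi or Xaf1, so no value is given for either. The brightest tested probe stood for a gene.

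The cells were primary neonatal rat ventricular myocytes from Sprague-Dawley rats of 1 to 2 days of age, labelled male. The si-uc.323 group received an siRNA against uc.323, a transcribed ultraconserved region, and the si-scramble group received a scrambled siRNA. In both groups the cells had grown for 36 h before they received 50 nmol/L siRNA with a lipid reagent for 3 h, were then kept without serum for 21 h, and were harvested 24 h after transfection. Both groups also shared bromodeoxyuridine in the medium and a preplating step that removes fibroblasts. Each group had 3 cultures, called independent experiments by the submitters, with 1 single-colour array per culture. Both groups were transfected, and untransfected cells were not analysed here, and no probe was matched to uc.323, so its knockdown was not checked. Therefore the comparison asks whether the 2 siRNAs differed in innate response and not whether transfection raised it.

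Double-stranded RNA in a cell is bound by the helicases encoded by Rigi and Ifih1, which signal through the adaptor Mavs and the kinase Tbk1 to the transcription factors Irf3 and Irf7, and these switch on type I interferon genes. Secreted interferon acts on its receptor, and a complex that contains Stat2 and Irf9 then binds the interferon-stimulated response element, a short promoter sequence, in front of the antiviral genes. Transfected siRNA is itself a short double-stranded RNA, so these genes are a common check on whether siRNAs are comparable.

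The sequence of the scrambled siRNA is not given in the sources used here. The si-uc.323 strand in the labels is shown because it is a strand of the double-stranded RNA given to the cells, with uridines in capitals and without its 2 overhanging thymidines.
si-uc.323: ggUaagUaaUUUcagcaaU
It has 19 bases, of which 6 are uridine, and 31.6% are G or C. The letters UGU and UGUGU, known from siRNAs that stimulate immune cells through toll-like receptors, were searched on this strand and on its complement and were found 0 times. Which strand is loaded was not stated.

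Promoter sequence was available from RefSeq (build GRCr8) for 27 of the 36 genes, as windows of 250 bases before to 50 bases after the start site, and there was no entry for Isg15, Ifit1, Ifit2, Mx2, Oas2, Rigi, Dhx58, Usp18 and Rtp4. The core letters of the response element, GAAA, any 2 bases and GAAA again, on either strand, were present in 18 of the 27 windows (66.7%), against 3.77% of 27457 promoter windows of the same length. The palindromic letters TTCNNNGAA of the gamma-activated site, a promoter element of the gamma interferon response, were present in 10 of the 27 (37%), against 8.68% of all windows. The motifs were counted separately, also where they overlapped. A match is a description of the letters and was not tested for binding.
The 4 promoters below belong to the genes with the lowest unadjusted p among those with a response-element match. Each is the stretch of 250 bases before the start site, written in the direction of the gene, with the matches in capitals. They are, in build GRCr8, chr6:21940904-21941153 on the plus strand for Eif2ak2, chr2:243328473-243328722 on the plus strand for Ifi44l, chr3:67683969-67684218 on the minus strand for Ifih1 and chr1:241527076-241527325 on the plus strand for Ifit3.
Eif2ak2: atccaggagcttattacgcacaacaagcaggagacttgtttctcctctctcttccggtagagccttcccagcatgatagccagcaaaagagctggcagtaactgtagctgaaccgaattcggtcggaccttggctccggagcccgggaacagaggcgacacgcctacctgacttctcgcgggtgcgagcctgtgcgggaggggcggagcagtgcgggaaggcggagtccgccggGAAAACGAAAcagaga
Ifi44l: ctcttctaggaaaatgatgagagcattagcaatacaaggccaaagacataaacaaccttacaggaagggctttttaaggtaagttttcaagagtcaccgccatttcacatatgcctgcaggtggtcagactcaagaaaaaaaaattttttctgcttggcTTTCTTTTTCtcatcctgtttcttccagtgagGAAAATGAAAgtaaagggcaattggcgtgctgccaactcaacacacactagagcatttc
Ifih1: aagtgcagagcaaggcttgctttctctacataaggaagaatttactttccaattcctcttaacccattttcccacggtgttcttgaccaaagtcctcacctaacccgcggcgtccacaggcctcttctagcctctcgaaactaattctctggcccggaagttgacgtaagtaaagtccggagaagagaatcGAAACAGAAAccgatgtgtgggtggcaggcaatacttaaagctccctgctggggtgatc
Ifit3: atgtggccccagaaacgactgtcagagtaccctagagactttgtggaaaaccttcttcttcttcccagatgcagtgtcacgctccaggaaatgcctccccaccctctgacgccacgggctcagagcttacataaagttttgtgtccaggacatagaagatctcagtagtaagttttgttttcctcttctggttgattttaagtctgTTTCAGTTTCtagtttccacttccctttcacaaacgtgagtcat
The match of Eif2ak2 began 16 bases before the start site, those of Ifi44l 91 and 59 bases, that of Ifih1 59 bases and that of Ifit3 44 bases. Among tested members, the 17 with a match had log2 fold changes between -0.38 and 0.53 (median 0.04), and the 8 with a window but no match had values between -0.49 and 0.29 (median -0.11).

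None of the 33 tested genes passed the threshold between the siRNAs. The threshold was a p under 0.05 from limma, adjusted by Benjamini-Hochberg over every feature. With it 0 members were higher after si-uc.323 (3.26% of all named genes) and 0 were lower (2.88%), while 6.14% of all named genes passed in either direction. The lowest adjusted p among the members was 0.105, and at an unadjusted p under 0.05 there were 4 higher and 2 lower members, 6 of 33, beside 30.1% of all named genes. The log2 fold changes, si-uc.323 minus si-scramble, lay between -0.49 and 0.53 with a median of -0.07, beside a median of 0.02 over all named genes, and 15 were positive and 18 negative. For 9 members the si-uc.323 values and the si-scramble values did not overlap, 6 above (20.1% of all named genes) and 3 below (19.0%), beside 39.1% of all named genes in either direction. Shifting by each array's median in place of its 75th percentile lowered every log2 fold change by 0.10 and left the calls at 0.

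The fit gave an interval for the difference of each tested gene. The unadjusted 95% interval lay within 1 log2 unit of 0, that is within a 2-fold difference either way, for all 33 tested members, beside 88.8% of all named genes. The interval reached furthest up for Ifi44l, to 0.98, and furthest down for Irf1, to -0.87. A miss of the threshold does not show equal expression, and differences inside these intervals remain possible. The intervals hold for the 1 probe that stood for a gene and come from the fit without the slide. Rigi, Xaf1 and Oasl have no interval.

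**Figure D1:**
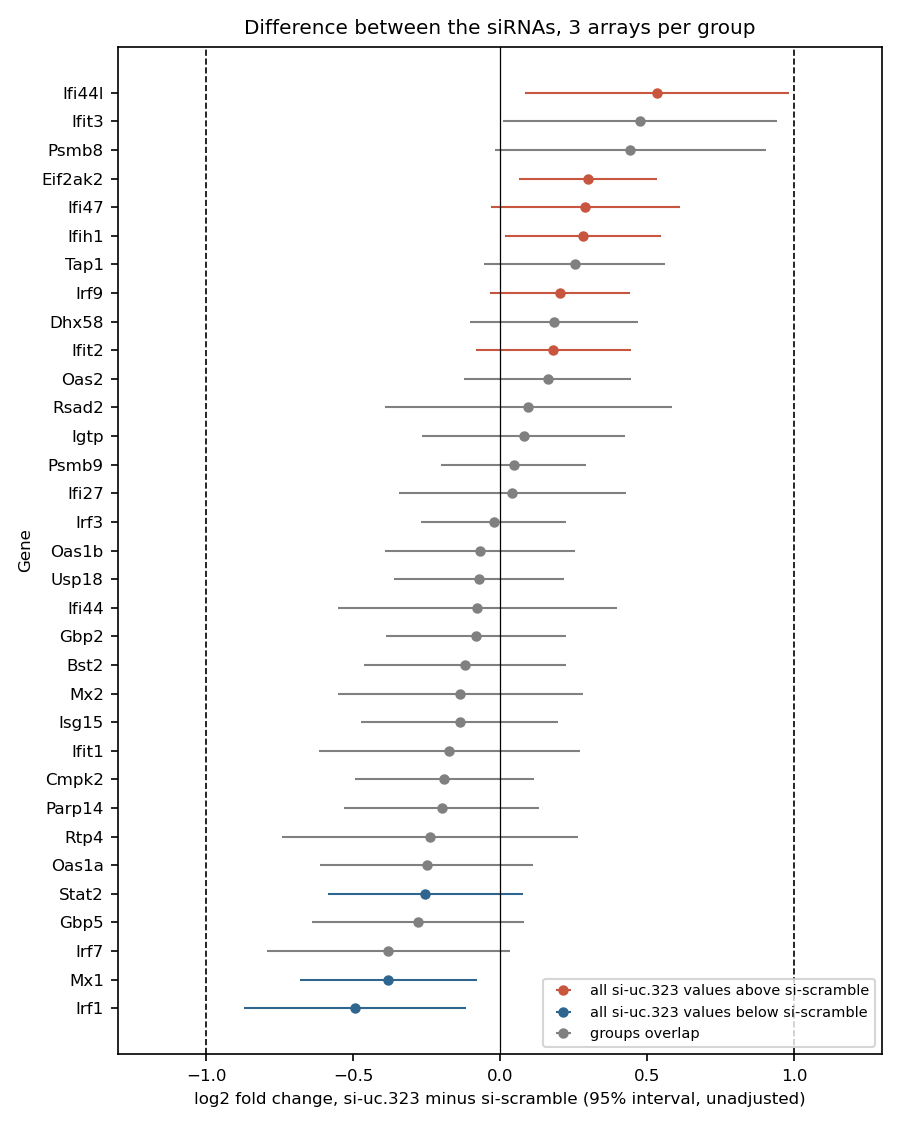
Log2 fold change of each tested member, si-uc.323 minus si-scramble, with its unadjusted 95% interval from the fit to 3 arrays per group; dashed lines mark 1 log2 unit either way. All 33 intervals stay inside the dashed lines (88.8% of all named genes), from -0.87 for Irf1 to 0.98 for Ifi44l. For 9 genes the groups do not overlap, beside 39.1% of all named genes.

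Of the 34 matched members, 33 were well above background on all 6 arrays, beside 73.3% of all named genes on the array. Signals here are linear, as percent of the 75th percentile of the spots on the same array, and are compared only between arrays for 1 probe. Ifih1, the helicase that binds long double-stranded RNA, read 9.63, 9.61 and 9.74% on si-uc.323 replicates 1, 2 and 3 and 8.57, 8.18 and 7.17% on si-scramble replicates 1, 2 and 3. Every si-uc.323 value lay above every si-scramble value, and the log2 fold change was 0.28 ± 0.11 (here and below ± SE, 3 arrays a group; adjusted p = 0.161 by limma). Dhx58, a related helicase without the signalling domain that modulates the other helicases, read 6.40, 7.27 and 6.91% with si-uc.323 and 5.81, 6.75 and 5.60% with si-scramble, and the groups overlapped (0.18 ± 0.12, adjusted p = 0.366).

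Eif2ak2, the kinase PKR that halts translation when it binds double-stranded RNA, read 77.1, 73.3 and 75.1% with si-uc.323 and 59.7, 61.5 and 62.3% with si-scramble. The groups did not overlap and each was tight. The log2 fold change was 0.30 ± 0.10 (adjusted p = 0.112), a ratio of 1.23 with an interval of 1.04 to 1.45. The dimmer of its 2 probes read a difference of 0.20 on the log2 scale. Eif2ak2 and Ifih1 were 2 of the 4 members with an unadjusted p under 0.05 and a positive value.

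The oligoadenylate synthetases bind double-stranded RNA and make short oligoadenylates as a second messenger. Oas1a read 6.22, 6.89 and 4.81% with si-uc.323 and 6.80, 6.90 and 7.40% with si-scramble (log2 fold change -0.25 ± 0.15, adjusted p = 0.326). si-uc.323 replicate 3 was the lowest of the 6 arrays, and the groups overlapped through si-uc.323 replicate 2. Oas1b (-0.07 ± 0.14) and Oas2 (0.16 ± 0.12) did not pass either, with adjusted p of 0.775 and 0.421. Oasl was the only matched member that was well above background on none of the 6 arrays and was not tested. The Oas1 genes are closely related copies, and their probes may not tell them apart.

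Of the 5 transcription factors, 4 had negative values. These 4 had signal above the median of the named genes, where 42.0% of all named genes were positive. Irf9 lay below that median, where 63.35% were positive. Irf1, which drives genes of the gamma interferon response, read 355, 397 and 267% with si-uc.323 and 484, 456 and 477% with si-scramble. The groups did not overlap, and the log2 fold change of -0.49 ± 0.16 had the lowest p of all members (adjusted p = 0.105). Its dimmer probe read the other way, by 0.29, and the mean over both probes gave -0.10 (adjusted p = 0.57), so the direction for Irf1 depended on the probe.

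Irf7, the factor that amplifies interferon production, read 126, 156 and 102% with si-uc.323 and 146, 173 and 175% with si-scramble (-0.38 ± 0.18, adjusted p = 0.209). The groups overlapped through si-uc.323 replicate 2 and si-scramble replicate 1. Stat2, the subunit of the interferon-activated complex that carries its activation domain, read 188, 192 and 148% with si-uc.323 and 192, 212 and 221% with si-scramble, where the groups failed to overlap by a small margin (-0.25 ± 0.14, adjusted p = 0.281). Irf9, the DNA-binding partner of Stat2, read 20.2, 20.3 and 21.7% with si-uc.323 and 17.6, 18.5 and 17.8% with si-scramble, also without overlap but in the other direction (0.20 ± 0.10, adjusted p = 0.238). Irf3, the factor that the sensors activate first, lay near 0 (-0.02 ± 0.10, interval -0.27 to 0.23).

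**Figure D2:**
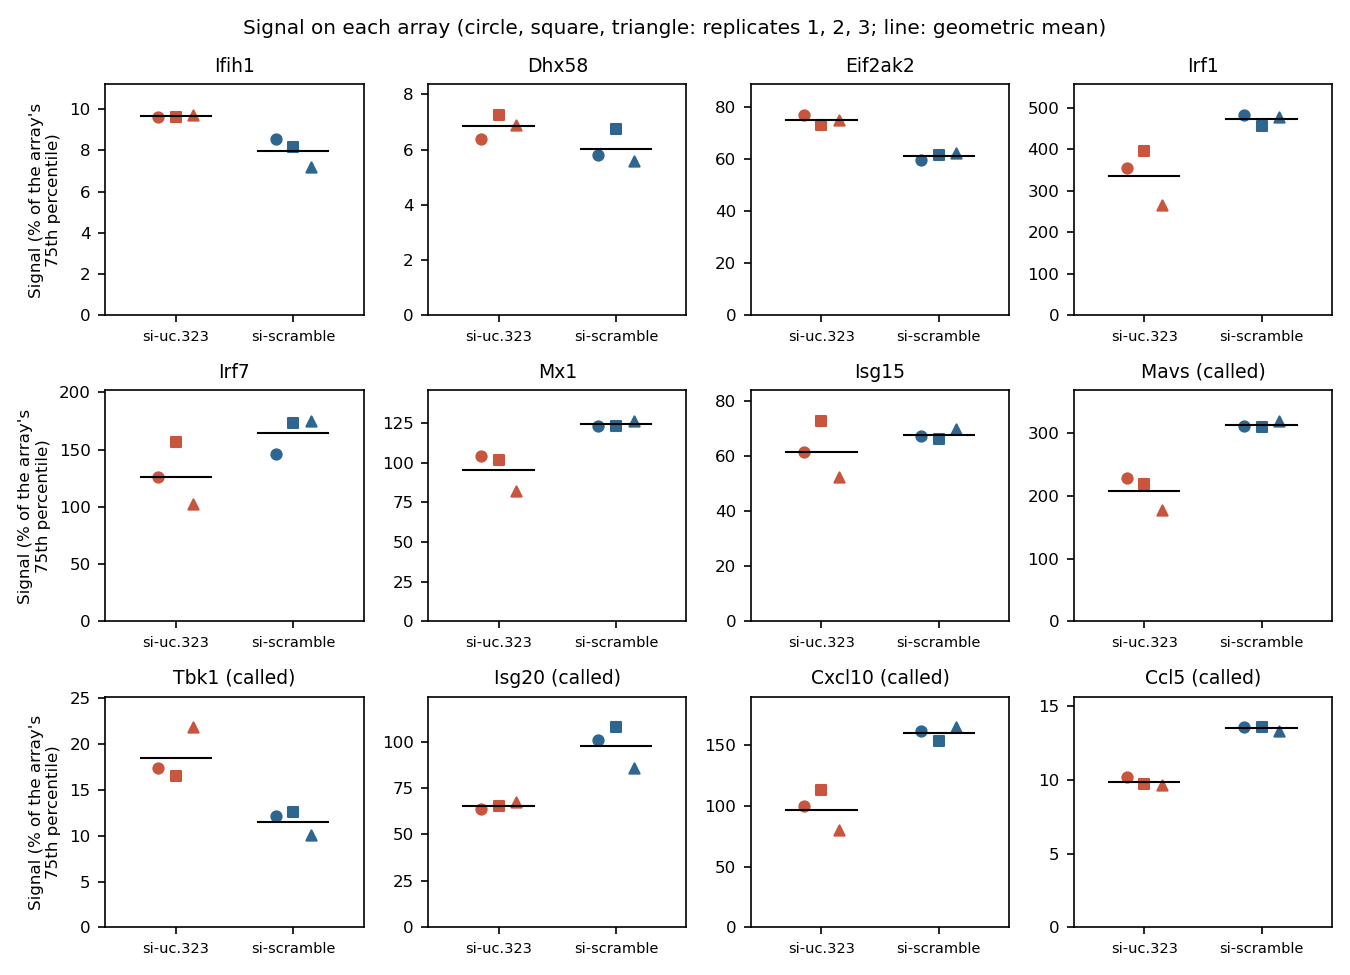
Signal of 7 members and of 5 other pathway genes on each array, as percent of the array's 75th percentile, with the 3 si-uc.323 arrays left of the 3 si-scramble arrays and a line at each group's geometric mean. Eif2ak2 is near 75% with si-uc.323 and 61% with si-scramble without a call, and the titles of Mavs, Tbk1, Isg20, Cxcl10 and Ccl5 mark the genes that passed.

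The effectors that interferon induces most strongly in many cells were split in sign and none passed. Isg15, a ubiquitin-like protein that is joined to other proteins, read 61.4, 72.9 and 52.4% with si-uc.323 and 67.4, 66.3 and 69.9% with si-scramble. The si-scramble values lay inside the range of the si-uc.323 values (-0.14 ± 0.14, interval -0.47 to 0.20). Usp18, the protease that removes Isg15 and dampens the receptor, differed by -0.07 ± 0.12 (adjusted p = 0.737), and its other probe read 0.13.

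The Ifit genes encode proteins that bind foreign RNA ends. Ifit1 read 1.45, 2.27 and 1.54% with si-uc.323 and 1.83, 1.84 and 2.15% with si-scramble (-0.17 ± 0.19, adjusted p = 0.59), a level close to background. Ifit2 read 24.4, 23.9 and 27.1% with si-uc.323 and 21.8, 23.6 and 21.1% with si-scramble, where the groups just failed to overlap (0.18 ± 0.11, adjusted p = 0.332). Ifit3 read 6.01, 7.27 and 8.97% with si-uc.323 and 4.88, 6.53 and 4.56% with si-scramble, with overlap (0.48 ± 0.20, adjusted p = 0.171). The 3 genes therefore did not share a sign.

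Mx1, a dynamin-like GTPase that blocks viruses, read 104, 102 and 81.9% with si-uc.323 and 123, 123 and 126% with si-scramble. All si-uc.323 values were lower (-0.38 ± 0.13, adjusted p = 0.112), a ratio of 0.768 with an interval of 0.623 to 0.946. Its relative Mx2 overlapped between the groups (-0.14 ± 0.18, adjusted p = 0.655). Ifi44l, an interferon-induced gene of little-known function, had the largest positive value of the members, reading 5.45, 4.87 and 7.60% with si-uc.323 and 4.69, 3.86 and 3.67% with si-scramble (0.53 ± 0.19, adjusted p = 0.129). Its neighbour on chromosome 2, Ifi44, read -0.08 ± 0.20 (adjusted p = 0.83).

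The remaining effectors were Rsad2, the antiviral enzyme viperin (0.10 ± 0.21), its neighbour Cmpk2, a mitochondrial nucleotide kinase (-0.19 ± 0.13), Bst2, the membrane protein tetherin that holds back budding viruses (-0.12 ± 0.15), Parp14, an ADP-ribosyltransferase (-0.20 ± 0.14), the chaperone of receptors Rtp4 (-0.24 ± 0.21) and Ifi27 (0.04 ± 0.16). Their adjusted p lay between 0.378 and 0.893. In this role, 5 of 15 tested genes were positive and 10 negative, with a median log2 fold change of -0.12.

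Interferon-inducible GTPases attack the membranes around intracellular microbes. Ifi47 read 14.1, 18.9 and 14.8% with si-uc.323 and 12.9, 12.9 and 13.1% with si-scramble (0.29 ± 0.14, adjusted p = 0.217). The groups did not overlap, and the si-scramble values were nearly equal. Gbp2 (-0.08 ± 0.13), Gbp5 (-0.28 ± 0.15) and Igtp (0.08 ± 0.15) overlapped between groups, with adjusted p between 0.276 and 0.757. The dimmer probes of Gbp5 and Igtp read 0.29 and 0.44.

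All 3 antigen processing genes were positive and none passed. They lie close together on chromosome 20, and the promoter windows of Psmb9 and Tap1 overlap. Psmb8, a subunit of the immunoproteasome, read 13.5, 10.2 and 14.6% with si-uc.323 and 11.0, 7.42 and 9.82% with si-scramble (0.44 ± 0.20, adjusted p = 0.192). Its partner Psmb9 read 0.05 ± 0.10 (adjusted p = 0.806), and Tap1, which carries peptides into the endoplasmic reticulum, 0.25 ± 0.13 (adjusted p = 0.251).

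**Figure D3:**
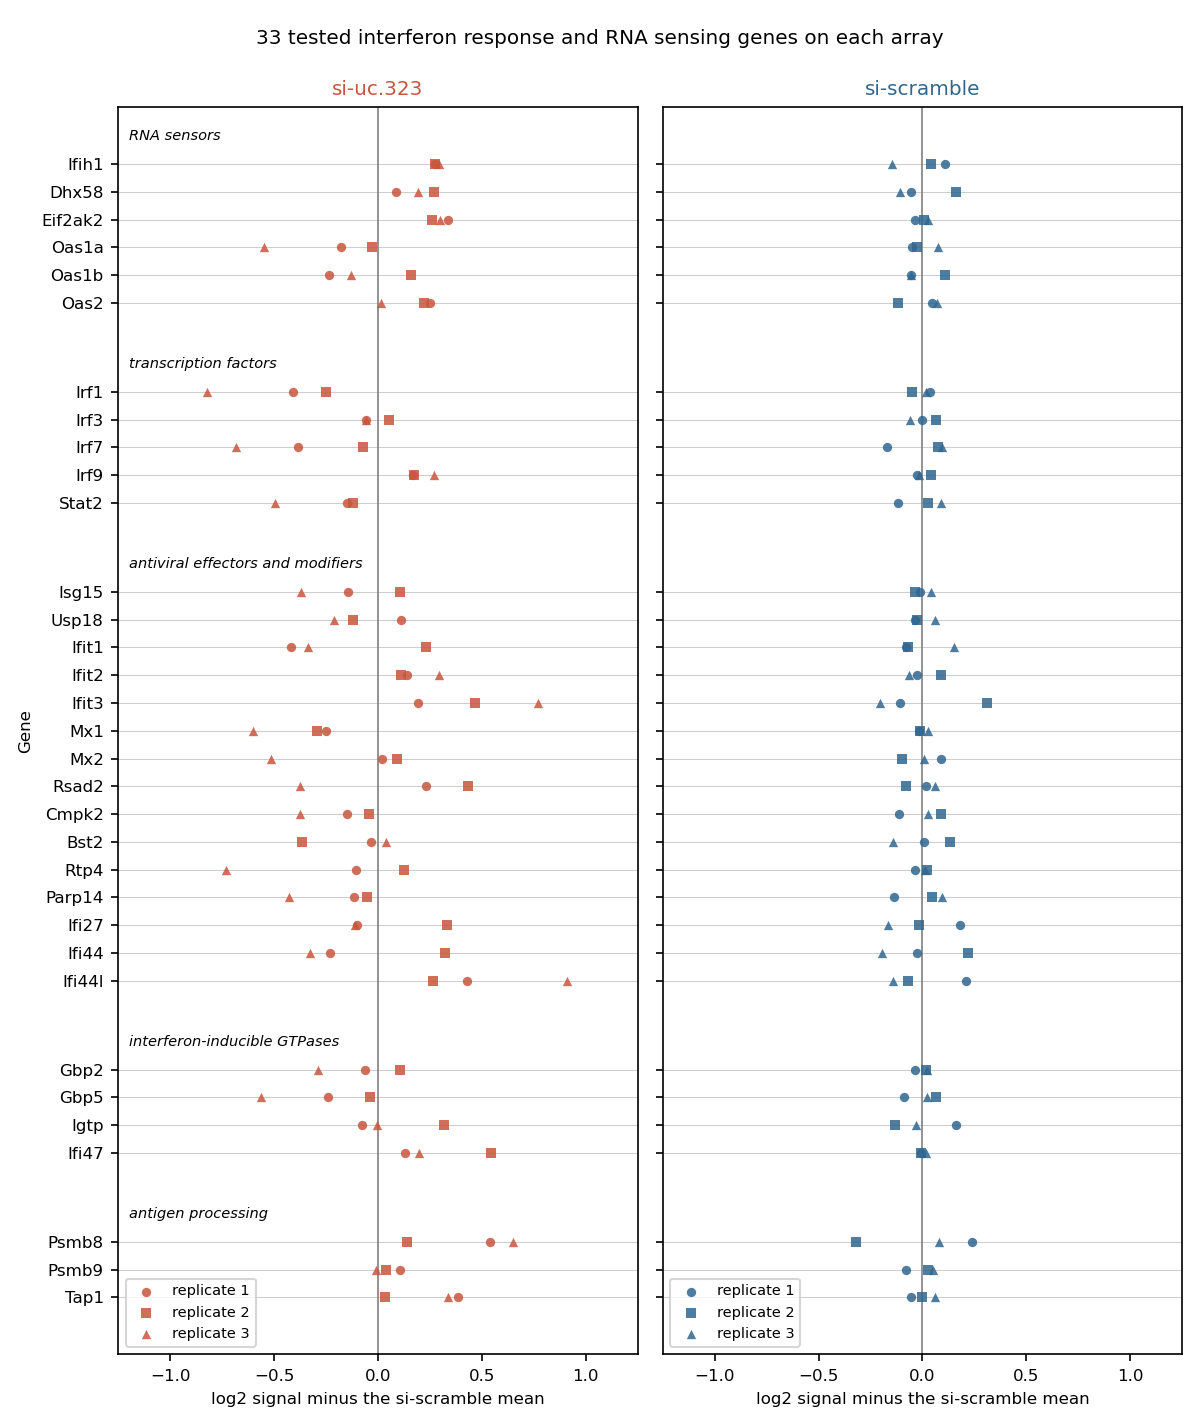
Log2 signal of each tested member on each array minus the mean of the 3 si-scramble arrays, in rows by role, with si-uc.323 on the left and si-scramble on the right. The si-uc.323 arrays spread more widely (median SD 0.21) than the si-scramble arrays (0.09). Replicate 3 of si-uc.323, the triangles on the left, is the lowest of the 6 arrays for 15 of 33 genes (for all named genes, 23.6%). It is the highest for 6 (for all named genes, 38.2%).

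The members varied more among the si-uc.323 arrays than among the si-scramble arrays. The median SD over members was 0.21 on the log2 scale in si-uc.323 and 0.09 in si-scramble, and over all named genes it was 0.21 and 0.10. The si-uc.323 arrays were divided over slides 1 and 2, and the si-scramble arrays were all on slide 1, as inferred below. Culture and slide can therefore not be told apart in this spread. si-uc.323 replicate 3 was the lowest of the 6 arrays for 15 of 33 members (for all named genes, 23.6%), and si-uc.323 replicate 2 was the highest for 12 (for all named genes, 14.9%). The other way, replicate 3 was the highest for 6 members (for all named genes, 38.2%), and replicate 2 was the lowest for 1 (for all named genes, 19.8%). The median difference of the members from the si-scramble mean was -0.06, 0.11 and -0.13 on si-uc.323 replicates 1, 2 and 3. Rsad2 shows the pattern, at 85.5, 98.6 and 56.2% with si-uc.323 and 73.9, 69.0 and 76.1% with si-scramble, as does Rtp4 at 106, 125 and 68.8% with si-uc.323 and 112, 116 and 115% with si-scramble.

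The slides, inferred from scan identifiers in the file headers, were divided unevenly between the groups. Slide 1 held si-uc.323 replicate 1 and all si-scramble arrays, and slide 2 held the remaining si-uc.323 arrays, where 78.2% and 86.5% of probes were well above background, against 71.8% to 73.9% on slide 1. The members with an unadjusted p under 0.05 are given singly here, a choice that itself favours equal signs on both slides. Within slide 1 the difference of si-uc.323 replicate 1 from the si-scramble mean was 0.34 for Eif2ak2, 0.28 for Ifih1, 0.43 for Ifi44l, 0.19 for Ifit3, -0.41 for Irf1 and -0.25 for Mx1. The mean of the slide 2 arrays differed from the same si-scramble mean by 0.28, 0.28, 0.59, 0.62, -0.54 and -0.45 for those genes in that order. Over all 33 tested members the median difference was -0.06 within slide 1 and -0.002 for slide 2, and 28 had the same sign in both. Both differences use the same si-scramble mean, so their signs depend on each other. The value within slide 1 rests on 1 si-uc.323 array. For the slide 2 arrays the siRNA and the slide cannot be told apart.

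The sign of a member's difference went with the brightness of its probe. Of the 15 members below the median signal of the named genes, 10 were positive (median log2 fold change 0.18), and of the 18 at or above it, 5 were positive (median -0.11). All named genes showed the same order, with medians of 0.12 below and -0.05 above. Across the 33 members, Pearson's r between mean log2 signal and log2 fold change was -0.412 and Spearman's rho was -0.447, and over all named genes they were -0.212 and -0.244. These are descriptions, since the genes share the same 6 arrays. Of the 6 members with a second probe, 5 had the higher value in the dimmer probe, Eif2ak2 being the exception, and in Irf1, Gbp5, Parp14 and Usp18 the probes differed in sign. With cyclic loess normalization, which reduces such a trend, the median of the members was 0.00 and again none passed. The split by brightness was smaller with it but still there, with 10 of the 15 dimmer members positive (median 0.10) and 7 of the 18 brighter ones (median -0.06). The part of this trend in any single gene's difference was not tested.

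**Figure D4:**
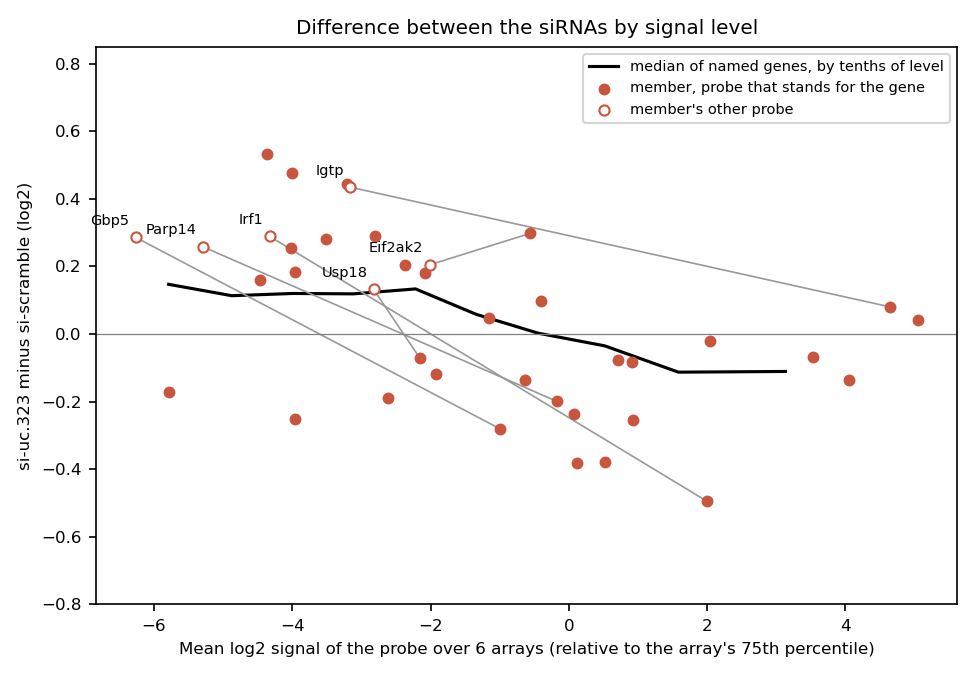
Difference between si-uc.323 and si-scramble on the log2 scale against the probe's mean log2 signal, for the members (filled), their second probes (open, joined by a line) and the median of all named genes in 10 bins of signal (black line). The black line falls by level, with medians of 0.15 in the dimmest bin and -0.11 in the brightest, and 5 of the 6 joined pairs slope down.

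A further 131 genes of the pathway, listed by role, gave the surroundings of the members. Of these, 96 were matched and 78 tested. At the same threshold 1 rose (3.26% of all named genes) and 4 fell (2.88%) with si-uc.323. These are 5 of 78, beside 6.14% of all named genes in either direction. The median log2 fold change was 0.02, with values between -0.73 and 0.68.

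The genes that passed were a pair that relays the signal of the RNA sensors and 3 that the pathway induces. Mavs, the mitochondrial adaptor of the RNA helicases, fell to 229, 219 and 178% with si-uc.323, against 313, 310 and 321% with si-scramble (-0.60 ± 0.13, adjusted p = 0.0457). Tbk1, the kinase that phosphorylates Irf3, rose to 17.4, 16.6 and 21.9% with si-uc.323, against 12.1, 12.5 and 10.1% with si-scramble (0.68 ± 0.15, adjusted p = 0.05 after rounding). Neither pair of groups overlapped, and these neighbours in the pathway had opposite signs. With normexp background correction Tbk1 did not pass (0.39, adjusted p = 0.0977).

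Cxcl10, an interferon-inducible chemokine that attracts T cells, fell to 100, 113 and 79.9% with si-uc.323, against 162, 153 and 165% with si-scramble (-0.73 ± 0.15, adjusted p = 0.0412). Ccl5, another chemokine of the sensor pathway, fell to 10.2, 9.74 and 9.63% with si-uc.323, against 13.6, 13.6 and 13.3% with si-scramble (-0.46 ± 0.10, adjusted p = 0.0471). Isg20, an exonuclease induced by interferon, fell to 63.5, 65.2 and 67.6% with si-uc.323, against 101, 108 and 85.6% with si-scramble (-0.58 ± 0.12, adjusted p = 0.0455). For these 3 genes the groups did not overlap. All 5 calls were lost with the slide as a block, with the slide 1 arrays alone, when probes below background were kept, and when any of 5 arrays was left out, si-uc.323 replicate 2 being the exception. Signs were kept in each case.

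The ligands and receptors gave no call. Ifnb1, interferon beta, was well above background on none of the 6 arrays, at 0.467, 0.404 and 0.837% with si-uc.323 and 0.453, 0.370 and 0.256% with si-scramble. No probe was matched to Ifnar2, Tyk2 or Cgas. Ifna4, an alpha interferon whose probe may also bind other alpha interferons, read 9.95, 12.8 and 10.6% with si-uc.323 and 8.50, 7.74 and 7.71% with si-scramble (0.47 ± 0.13, adjusted p = 0.0767). The groups did not overlap. Ifnar1, a chain of the type I receptor, read 7.90, 5.81 and 8.98% with si-uc.323 and 7.33, 6.09 and 7.26% with si-scramble, with overlap (0.12 ± 0.18, adjusted p = 0.714). Jak1, a kinase of that receptor, read 128, 97.7 and 147% with si-uc.323 and 94.8, 99.2 and 92.9% with si-scramble, with overlap through si-uc.323 replicate 2 (0.36 ± 0.16, adjusted p = 0.203).

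Tlr3, the endosomal receptor of double-stranded RNA, read 20.1, 20.8 and 20.3% with si-uc.323 and 23.1, 23.5 and 23.2% with si-scramble, a small and even difference without overlap (-0.19 ± 0.10, adjusted p = 0.251). These values are from 1 of its 2 matched probes, and the log2 fold change lay between -0.31 and -0.09 across the alternative fits. Tlr7, the endosomal receptor of single-stranded RNA, was well above background on 1 si-uc.323 array and on 0 si-scramble arrays and was not tested. Sting1, the adaptor of DNA sensing, read 35.2, 40.3 and 31.6% with si-uc.323 and 44.6, 44.9 and 48.3% with si-scramble, without overlap (-0.37 ± 0.13, adjusted p = 0.116). Adar, which edits double-stranded RNA, read 6.51, 6.02 and 7.19% with si-uc.323 and 6.71, 7.06 and 6.92% with si-scramble, with overlap (-0.07 ± 0.11, adjusted p = 0.71).

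Other cells of the preparation can also carry these RNAs, and in bulk RNA fewer cells of a type and less RNA per cell cannot be told apart. All 8 cardiomyocyte markers were well above background on all arrays, with a summed signal of 20150 to 22810% in si-uc.323 and 21660 to 22620% in si-scramble. Of these, 5 had positive and 3 negative log2 fold changes (median 0.03), and 0 passed. Their groups did not overlap for 2 above (20.1% of all named genes) and 3 below (19.0%). The 13 leukocyte and macrophage markers were matched and summed to 1565 to 2000% in si-uc.323 and 1813 to 1846% in si-scramble, with Lyz2 alone at 986 to 1373% in si-uc.323 and 1092 to 1179% in si-scramble. Of the 12 tested, 7 had positive and 5 negative log2 fold changes (median 0.08), and 1 passed, beside 6.14% of all named genes. That was Cx3cr1, a chemokine receptor, which fell (-1.60 ± 0.35, adjusted p = 0.0462), while Mrc1 (0.48 ± 0.19, adjusted p = 0.158), Adgre1 (0.42 ± 0.13, adjusted p = 0.1) and Cd68 (-0.41 ± 0.11, adjusted p = 0.0654) did not pass. The 5 matched of 6 endothelial markers summed to 558 to 860% in si-uc.323 and 1106 to 1247% in si-scramble, mostly through the bright probe of Kdr (-0.76 ± 0.20, adjusted p = 0.068). None of the 5 passed, with 2 positive and 3 negative values (median -0.10), and Tek lay the other way without overlap (0.46 ± 0.19, adjusted p = 0.165). The 8 fibroblast markers summed to 12700 to 15910% in si-uc.323 and 12490 to 13550% in si-scramble, with 6 positive and 2 negative log2 fold changes (median 0.13), and 1 of them passed, Postn, which rose (0.69 ± 0.12, adjusted p = 0.0312). Of the 4 plasmacytoid dendritic and B cell markers 2 were matched, at 0.825 to 2.12% in si-uc.323 and 1.04 to 1.35% in si-scramble, and neither was tested. The 5 T and natural killer cell markers summed to 18.1 to 24.9% in si-uc.323 and 17.6 to 19.1% in si-scramble, with Cd8a above background on no array. Their part in the values of the chemokines and of the members was not tested.

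No other fit changed the count of members called except that with array weights. With these, which give the arrays unequal weight, 3 members were higher (Eif2ak2, Ifi44l and Tap1) and 2 were lower (Irf1 and Mx1), 5 of 33, when 29.4% of all named genes were called.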

How the data were processed

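Total RNA of 6 cultures, 3 for each siRNA, was labelled with Cy3, per the labels' protocols, and read on 1-colour Agilent arrays. Per the file headers, the deposited scanner files hold for every spot a processed intensity (corrected for background and spatial trend), raw median intensities and quality flags. The software was Agilent Feature Extraction 11.0.1.1, as listed in the submitters' processing notes. A deposited series file holds log2 values with a median of 6.511 on every array. What scaling made them is not stated, and they served as an alternative.

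Control spots and outlier spots (322 to 594 of 42877 an array) were dropped, and log2 processed intensities were shifted by the array's 75th percentile. Spots of 1 probe were averaged. A probe was tested where all 3 arrays of either siRNA had it well above background, and no spots were saturated. Accessions named 18005 of 30367 probes through RefSeq (GRCr8). Genes were represented by their brightest tested probe, and each probe without a name entered on its own, 19920 features in all. The groups come from sample titles, and the slides from scan identifiers in the headers. The fit was lmFit with eBayes (limma 3.58.1 in R 4.3.3), without covariates, with Benjamini-Hochberg adjustment over all features, and was tested on simulated data. The submitters speak of independent experiments but name no litters, and the p-values rest on the spread among these cultures, which may be technical. The number of arrays limits the precision. Plots used matplotlib 3.10.9 (Python 3.11.15).

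The members and lists were chosen with earlier results of these data known. Values on each array are given for called members, for members whose groups do not overlap, for a set of sensors and induced genes fixed by name, and for other pathway genes called or named likewise. Psmb8, Rsad2, Rtp4 and Ifna4 were added after their values were seen. Alternatives covered background correction, scaling, the filter, probes, the prior, array weights, blocks and leaving out each array. Some genes of the wider pathway list are not reported here.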

Additional observations from a re-analysis of the deposited data

How the results depend on the processing

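The count of members called stayed at 0 higher and 0 lower under 18 of 19 alternatives. With array weights it was 3 higher and 2 lower. The median log2 fold change of the members lay between -0.17 (median shift) and 0.05 (without si-uc.323 replicate 3), and between -0.09 and 0.05 when each array was left out. The count of named genes called, 711, was 1182 with cyclic loess, 1172 with a trended and robust prior, 3399 with array weights, 404 with the replicate block, 3 with the slide as a block, 25 on the slide 1 arrays and 0 without the background filter (3110 at an unadjusted p under 0.05), and between 0 and 1791 when each array was left out. The count of other pathway genes called, 5, was 23 with array weights, 0 with the replicate block, 0 with the slide as a block, 0 on the slide 1 arrays and 0 without the filter (15 at an unadjusted p under 0.05), and between 0 and 15 when each array was left out, 15 being the count without si-uc.323 replicate 2. The cause of these changes was not tested. Whether equal replicate numbers pair the cultures is not stated. The deviations of equal numbers correlated at 0.205, 0.390 and -0.116, and not every array correlated best with its own number. Deviations from the mean of 3 arrays depend on each other, so these correlations cannot decide the pairing. Of 836 single-gene values under the alternatives, 45 changed sign, all in 16 genes that passed neither before nor after and had log2 fold changes no larger than 0.24 in size, and 0 called values changed sign. Ifi44l (0.13), Ifit3 (0.13), Psmb8 (0.12) and Ifih1 (0.07) were nearer to 0 with normexp, whose offset of 50 pulls dim probes towards 0. For Ifit1 and other dim probes, signal over background limits what could be seen.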
